A study of Mus musculus with 4 samples.

Results

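The SCL peaks described here are those closest to 9 genes that encode Ets factors of blood and endothelium. SCL (gene symbol Tal1) is a DNA-binding protein of the basic helix-loop-helix class without which no blood forms. The genes were Fli1, Erg, Etv2, Ets1, Ets2, Etv6, Elk3, Elf1 and Gabpa. A peak belonged to a gene when its summit lay nearer to a transcription start site (TSS) of that gene than to a TSS of any other protein-coding gene, in the GENCODE vM1 annotation of mm9. By this rule 44 of the 12885 peaks of the list belonged to the Ets factor genes. Chromatin immunoprecipitation and sequencing (ChIP-seq) had been performed with 2 libraries from an in-house rabbit SCL antiserum and 2 input libraries without antibody. The labels number the libraries as replicates and do not say whether they came from separate cultures. All libraries came from wild-type FLK1+ mesoderm sorted at day 3.5 from embryoid bodies of embryonic stem cells of strain C57Bl/6 X Sv129, which the peak names call J1. FLK1 is the VEGF receptor that marks mesoderm able to form blood and endothelium, and a list of SCL peaks holds no expression with which to check that sort. There was a single condition, and the list was called on the merged libraries, so no peak has a replicate error and no difference between conditions could be tested.

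Ets factors share a DNA-binding domain, the ETS domain, that recognises sequences around the core GGAA. Several of them work in networks with SCL, GATA and RUNX factors at enhancers of blood and endothelial genes. ETV2 is needed to form the blood and endothelial branch of FLK1+ mesoderm and acts early, whereas FLI1 and ERG act later in endothelium and blood stem cells. In mammals Fli1 and Ets1 lie side by side, as do Erg and Ets2.

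SCL peaks were found at 8 of the 9 genes. Ets1 had 12 peaks, Fli1 had 9, Ets2 and Erg had 6 each, Etv6 had 5, Elk3 had 3, Etv2 had 2 and Elf1 had 1, while Gabpa had none. Over all 22225 protein-coding genes, 29.1% had at least 1 peak. At least 2 peaks were found for 7 of the Ets factor genes and for 12.8% of all protein-coding genes, and at least 3 for 6 and for 6.59%. At least 5 were found for 5 of them and for 2.12% of all genes, and at least 6 for 4 and for 1.27%. The strongest peaks lay at Ets1, Fli1 and Ets2, with fold enrichments over the local background of 225, 128 and 102, and they were 3 of the 215 peaks of the whole list with a fold of at least 100 (1.67% of all peaks). The median fold of the 44 peaks was 15.8 (95% confidence interval of the median 12.9 to 25.8), and that of all peaks 11.1. The interval treats the peaks as independent, although many lie close together, so it is likely too narrow. It is not a test of the difference. A fold of at least 20 was found for 16 of the 44 peaks, or 36.4%, and for 25.1% of all peaks.

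**Figure D1:**
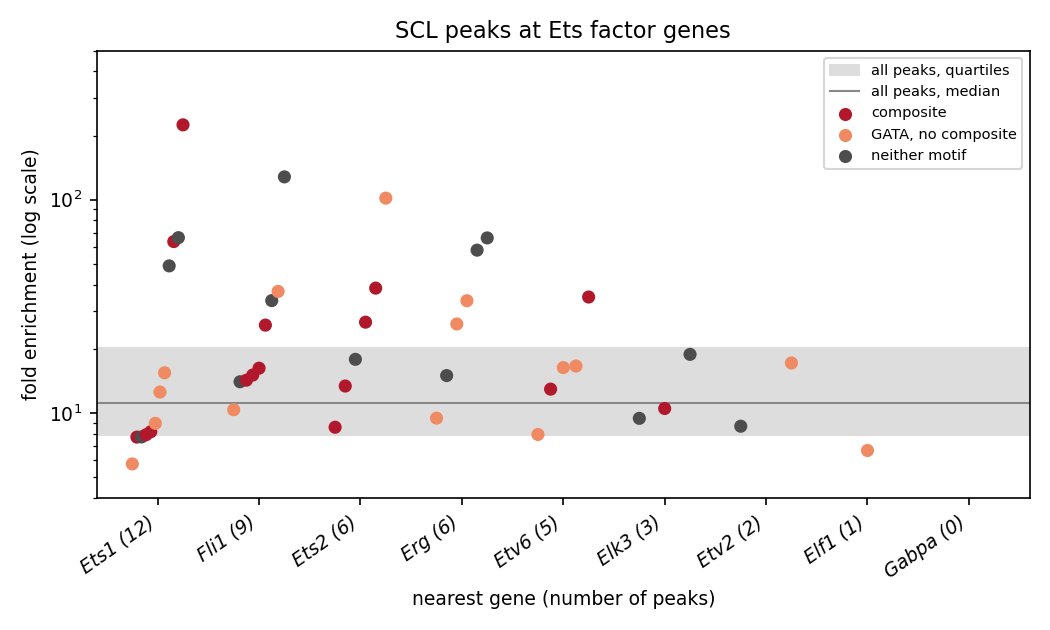
Fold enrichment (log scale, no unit) of each of the 44 peaks by nearest Ets factor gene, with the number of peaks in brackets. Points are single peaks of the pooled list, spread sideways only to separate them and coloured by the motifs within 50 bp of the summit, and the grey band and line give the quartiles and median of all peaks. Ets1, Fli1 and Ets2 each have 1 peak above a fold of 100, and the single Elf1 peak lies under the band.

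The sequences at the summits of strong peaks of these genes are given first for those with the typical SCL site and then for those without it. SCL contacts DNA in a complex with E proteins, LMO2, LDB1 and a GATA factor, and the typical site of that complex is the triplet CTG followed 7 to 9 bp later by GATA, called the composite below. The following peaks are shown because they had a composite within 50 bp of the summit. They are among the strongest of their genes and include the peak at the Fli1 promoter. Each window of 101 bp is centred on the summit and read 5′ to 3′ from the mm9 genome on the strand where the composite reads forward, and capitals mark CTG and GATA.
Ets1, upstream, chr9:32414934-32415034 (- strand): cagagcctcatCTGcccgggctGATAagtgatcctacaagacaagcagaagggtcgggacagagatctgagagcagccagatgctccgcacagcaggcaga
Ets1, intron, chr9:32481622-32481722 (- strand): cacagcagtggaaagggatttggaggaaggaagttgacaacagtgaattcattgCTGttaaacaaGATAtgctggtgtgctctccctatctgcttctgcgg
Fli1, promoter, chr9:32349200-32349300 (+ strand): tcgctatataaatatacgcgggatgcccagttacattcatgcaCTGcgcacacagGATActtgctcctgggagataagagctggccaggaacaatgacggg
Ets2, downstream, chr16:96060672-96060772 (- strand): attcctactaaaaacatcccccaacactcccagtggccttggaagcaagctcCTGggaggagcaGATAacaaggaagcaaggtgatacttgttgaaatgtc
Etv6, intron, chr6:134139934-134140034 (+ strand): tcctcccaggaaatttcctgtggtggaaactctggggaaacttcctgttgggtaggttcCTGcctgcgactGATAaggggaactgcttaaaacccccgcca

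A composite was present at the strongest peaks of Ets1 and Etv6. The gap between its parts was 8 bp at both Ets1 peaks and 9 bp at the Fli1 promoter, at Ets2 and at Etv6. The centre of the composite lay 0.5 bp from the summit at the Fli1 promoter and 32.0 bp from it at the upstream Ets1 peak. A full GATA motif has A or T before GATA and A or G after it. The GATA of the composite was not a full motif at the Fli1 promoter and the intronic Ets1 peak. Their nearest full GATA motifs lay 23.5 and 37.5 bp from the summits. The following peaks are shown because they were the strongest of their genes, or at Erg the leading pair, and had no composite in the window. Capitals mark GATA with its flanking letters at Ets2 and Etv2, E-boxes (CANNTG) at Erg and Elk3, and AGGAAA, a form of the Ets motif, at Fli1. Other motifs are not marked. The windows of Ets2 and Etv2 also held an E-box, and those of Etv2, Elk3 and the intronic Erg peak an Ets motif. At Etv2 the Ets motif lay 3.5 bp from the summit and the marked GATA 14.5 bp.
Fli1, upstream, chr9:32364007-32364107 (- strand): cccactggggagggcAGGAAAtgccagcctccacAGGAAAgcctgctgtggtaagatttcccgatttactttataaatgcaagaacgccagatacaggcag
Ets2, downstream, strongest, chr16:96046993-96047093 (+ strand): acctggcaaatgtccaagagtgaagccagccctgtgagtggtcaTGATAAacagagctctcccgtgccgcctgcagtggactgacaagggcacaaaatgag
Erg, beyond the gene end, chr16:95573977-95574077 (+ strand): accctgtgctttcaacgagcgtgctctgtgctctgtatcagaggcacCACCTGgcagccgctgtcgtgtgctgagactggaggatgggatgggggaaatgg
Erg, intron, chr16:95660902-95661002 (+ strand): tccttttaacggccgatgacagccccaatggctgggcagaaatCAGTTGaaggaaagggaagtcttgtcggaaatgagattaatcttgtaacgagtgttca
Etv2, promoter, chr7:31421497-31421597 (- strand): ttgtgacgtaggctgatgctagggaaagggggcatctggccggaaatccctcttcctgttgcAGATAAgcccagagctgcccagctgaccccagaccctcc
Elk3, intron, chr10:92739323-92739423 (+ strand): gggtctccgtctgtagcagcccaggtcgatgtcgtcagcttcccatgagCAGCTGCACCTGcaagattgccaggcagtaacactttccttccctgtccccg

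The strongest Fli1 peak thus had neither an E-box nor a full GATA motif within 50 bp of its summit. Its window held 2 matches of AGGAAA and a RUNX motif (TGTGGT), the centre of the RUNX match lying 1.5 bp from the summit and the nearest GATA motif of the peak 53.5 bp away. At the leading pair of Erg peaks, E-boxes lay 0.5 and 4.5 bp from the summits, and the nearest GATA motifs 222.5 and 57.5 bp away. At the intronic peak of this pair an Ets motif lay 2.5 bp from the summit, nearer than the E-box. All windows shown lie outside annotated exons of protein-coding genes. At Ets1, the peaks with folds of 66.4 and 48.9, which are not shown, had no composite, GATA motif or E-box within 50 bp of the summit. A match is a run of letters and not a measured contact.

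Fli1 and Ets1 carried 21 of the 44 peaks. FLI1 is a regulator of blood and endothelial genes, and ETS1 acts in endothelium and lymphoid cells. The genes lie head to head on chromosome 9, Fli1 (ENSMUSG00000016087.6, 32229793 to 32348974, minus strand) and Ets1 (ENSMUSG00000032035.7, 32443806 to 32565405, plus strand), with 94.8 kb between their outermost starts and no other protein-coding gene in between. This interval held 10 peaks, a rate of 10.5 per 100 kb, where the whole genome had 0.485 per 100 kb. Erg and Ets2 lie in the same head-to-head order on chromosome 16, 115.5 kb apart, and the interval between them held no peak of the list. Their 12 peaks lay within Erg, beyond its end, or downstream of Ets2.

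At Ets1, the folds of the 12 peaks were 5.76, 7.70, 7.71, 7.90, 8.15, 8.93, 12.52, 15.4, 48.9, 63.6, 66.4 and 225. They formed a low set of 8 peaks up to 15.4 and a high set of 4, with nothing in between. The highest, at chr9:32414737-32415454, had 1165 ChIP fragments stacked at its summit (the pileup) on a local background of 4.19 fragments, and its fold had a 95% interval from counting error of 212 to 238. It was the 16th strongest of the list, lay in intergenic sequence 28.8 kb upstream of Ets1 and 66.0 kb upstream of Fli1, and belonged to a row of 5 peaks spread over 24.2 kb. The high pair at 48.9 and 63.6 lay in an Ets1 intron, 1.38 kb apart and 36.5 and 37.9 kb downstream of the outermost start. The peak with a fold of 66.4, at chr9:32908726-32909315, lay 465.2 kb downstream of that start and 405.4 kb from the nearest TSS, an internal one of Ets1. Of the 12 peaks, 10 were intergenic and none lay within 1 kb of a TSS. Counted only within the gene and 10 kb on either side, Ets1 had 4 peaks and Fli1 5, and with folds from 10 upwards Ets1 had 6 and Fli1 9.

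At Fli1, the folds of the 9 peaks were 10.3, 14.0, 14.2, 15.0, 16.2, 25.8, 33.6, 37.1 and 128. No Fli1 peak was as weak as the 6 lowest of Ets1, and the strongest stood apart from the rest. It lay 15.1 kb upstream of the TSS at chr9:32363620-32364273, with a pileup of 482 fragments and a counting interval of its fold of 117 to 140. Weaker peaks with folds of 16.2 and 14.0 flanked it on either side within 4.18 kb. A peak with a fold of 25.8 at chr9:32348958-32349486 had its summit 0.276 kb upstream of the TSS, and the peak of 37.1 lay in an intron 35.1 kb downstream. The 4 intronic peaks of Fli1 formed a row spread over 19.4 kb. The peak of 33.6, at chr9:32389161-32390178, was close to the boundary of the rule, 40.7 kb from the Fli1 TSS and 54.1 kb from that of Ets1, and the next peak on the Ets1 side had a fold of 15.4, 30.9 kb from Ets1 and 64.0 kb from Fli1.

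**Figure D2:**
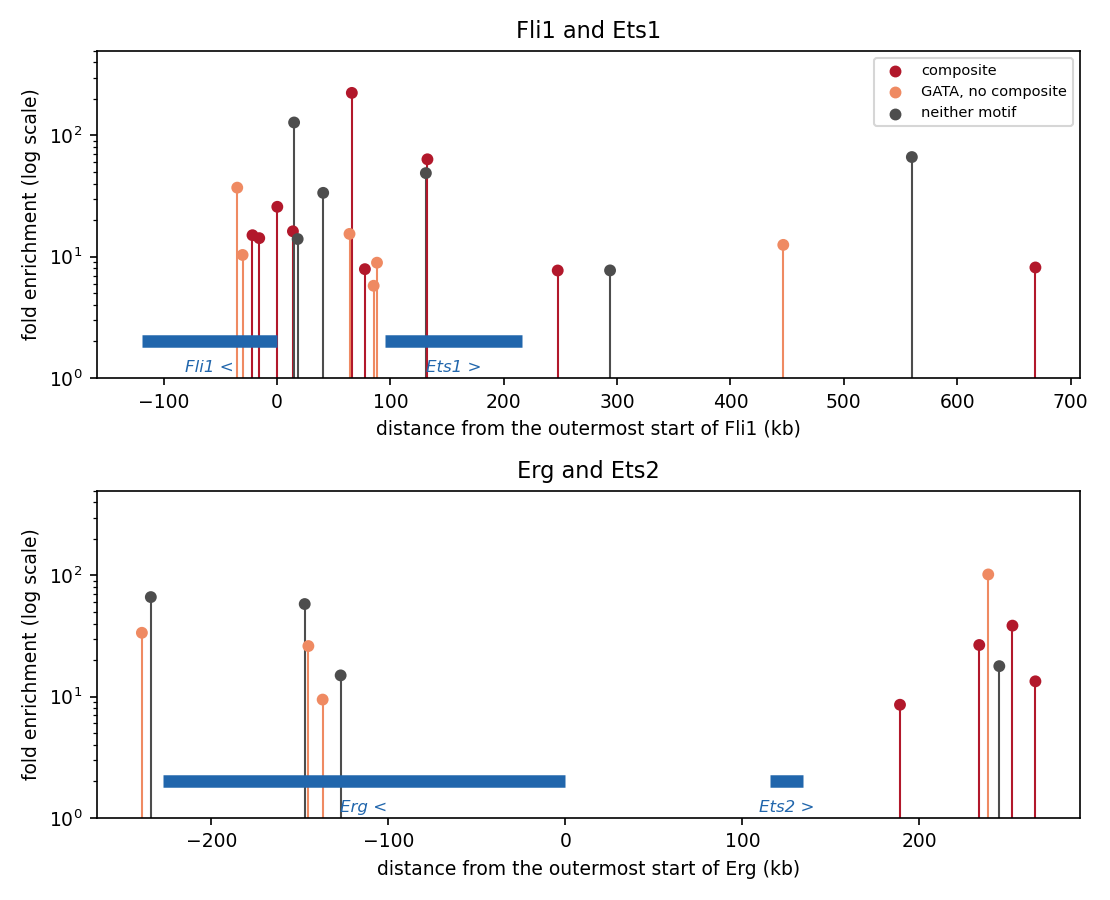
Position of each peak as distance in kb from the outermost start of Fli1 (upper panel) and of Erg (lower panel), against its fold enrichment (log scale). Lines with points are peaks coloured by motif, blue bars are the genes with < or > for their direction. The space between Fli1 and Ets1 holds 10 peaks and that between Erg and Ets2 none.

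ERG maintains blood stem cells and endothelium, and ETS2 is a target of growth factor signalling. At Erg (ENSMUSG00000040732.11, chromosome 16, 95580776 to 95808200, minus strand), the folds of the 6 peaks were 9.45, 15.0, 26.1, 33.6, 58.0 and 66.2. The 4 peaks inside the gene lay in a row of 20.3 kb, with folds of 58.0, 26.1, 9.45 and 15.0 in that order towards the start of the gene. The last of these, at chr16:95680910-95681375, had its summit 0.292 kb upstream of an internal TSS, 127.0 kb downstream of the outermost one. No peak was nearer to the outermost start. The peaks of 33.6 and 66.2 lay beyond the end of the gene, 5.05 kb from each other. The strongest, at chr16:95573686-95574223, had a counting interval of its fold of 60.0 to 72.9. That of the peak of 58.0 (51.2 to 65.5) overlapped it, so their order by fold is not resolved at this depth. Their pileups were 412 and 257 fragments, with counting intervals of 373 to 454 and 227 to 290, which did not overlap.

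At Ets2 (ENSMUSG00000022895.8, chromosome 16, 95923682 to 95942658, plus strand), the folds of the 6 peaks were 8.56, 13.4, 17.8, 26.6, 38.5 and 102. All were intergenic, from 59.7 to 136.2 kb downstream of the nearest Ets2 TSS, and neither the gene nor the 10 kb on either side held a peak. The strongest, at chr16:96046589-96047255, had a pileup of 474 fragments and a counting interval of 92.8 to 111, and it lay in a row of 4 peaks over 18.8 kb. A processed transcript, 2810404F17Rik, started nearer to all 6 of these peaks than Ets2 did, 12.04 to 43.8 kb away. The peak just outside the rule, at chr16:96082518-96083334 with a fold of 99.9, lay 145.6 kb from Ets2 and 128.4 kb from Psmg1, which claimed it.

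Etv6, Elk3, Etv2 and Elf1 had fewer peaks, and the strongest peak of each had a lower fold than the strongest of Ets1, Fli1, Ets2 and Erg. The median fold of Etv6 was 16.3, however, against 16.2 at Fli1 and 10.7 at Ets1. It was below the medians of Ets2 (22.2) and Erg (29.9). ETV6 is a repressor needed for bone marrow haematopoiesis. Its 5 peaks, with folds of 7.92, 12.9, 16.3, 16.6 and 34.96, all lay within introns of the gene (ENSMUSG00000030199.9, chromosome 6, 133985718 to 134220176, plus strand). The strongest, at chr6:134139612-134140188, had a pileup of 134 fragments and lay 3.50 kb from the peak of 16.3, while the others stood alone. The processed transcript Gm17088 started nearer than Etv6 to 3 of these peaks, the strongest included.

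ETV2 is the earliest of these factors to be needed in this mesoderm. At Etv2 (ENSMUSG00000006311.6, chromosome 7, 31418635 to 31421308, minus strand), the folds of both peaks were 8.66 and 17.1. The stronger, at chr7:31421378-31421723, lay 0.239 kb upstream of the TSS with a counting interval of 13.8 to 21.1, and the weaker lay 3.15 kb upstream. Etv2 lies among close neighbours, and the sequence nearer to its TSSs than to those of any other protein-coding gene spanned 9.99 kb. Over that span its rate was 20.02 peaks per 100 kb, against 7.43 for Fli1, 2.88 for Ets2, 2.44 for Elk3, 2.01 for Erg, 1.47 for Elf1, 1.33 for Etv6 and 1.20 for Ets1. The order of the genes by rate was therefore another than by number, with Etv2 first and Ets1 last of the 8. A rate from so few peaks, 2 at Etv2 and 1 at Elf1, is imprecise.

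ELK3 is a factor of the ternary complex type that acts in blood vessels. The folds of its peaks (ENSMUSG00000008398.7, chromosome 10) were 9.43, 10.5 and 18.8, with 2 peaks in an intron and that of 10.5 intergenic, 65.7 kb upstream. ELF1 is expressed broadly in blood cells. Its gene (ENSMUSG00000036461.8, chromosome 14) was nearest to 1 intronic peak with a fold of 6.73, and 2 further peaks within the gene, with folds of 6.52 and 34.4, were given to the neighbour Wbp4. The summit with the fold of 6.52 lay 0.856 kb from an Elf1 TSS and 0.782 kb from one of Wbp4, so the count at Elf1 turns on the boundary between the 2 genes. GABPA is the DNA-binding subunit of a factor present in most cells. No peak was nearest to Gabpa (ENSMUSG00000008976.9, chromosome 16), and the closest summit lay 136.0 kb from its TSSs. The list holds only peaks past a threshold, so weaker binding at Gabpa was not analysed here.

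The peaks at the Ets factor genes had another peak nearby more often than the list as a whole. Another summit was found within 12500 bp for 31 of 44 peaks, or 70.5% (Wilson 95% confidence interval 55.8% to 81.8%), and for 34.5% of all peaks. The interval treats the peaks as independent, although neighbouring peaks count for each other, so it is likely too narrow. At the Ets2 peak with a fold of 13.4 the only such neighbour was a peak of Psmg1. The share was 94.7% at Gata1, Gata2 and Zfpm1, 50% at the other Ets family genes and 27.8% at the RUNX genes and Cbfb, so it was not particular to the Ets factors of blood and endothelium. The median width was 515 bp, against 397 bp for all peaks, and the median pileup 76.5 fragments, against 53. The local background was similar, with a median of 3.67 fragments in both and no Ets factor peak above 8.38. A summit within 1 kb of a TSS was found for 3 peaks, those at Fli1, Erg and Etv2, or 6.82% against 7.59% of all peaks. Beyond that distance, 17 peaks were intronic and 24 intergenic, or 38.6% and 54.5%, against 39.1% and 51.5% of all peaks. None was exonic, against 1.85% of all peaks. A summit over 50 kb from any protein-coding TSS was found for 15, or 34.1%, against 32.5%. With promoters drawn as 5 kb on either side of a TSS the shares were further apart, 11.4% against 20.7%, and none of these differences was tested.

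Motifs were searched in the 101 bp windows, reading either strand. GATA preceded by A or T and followed by A or G was found in 30 of the 44 windows, or 68.2% (Wilson 95% confidence interval 53.4% to 80.0%), against 73.2% of all peaks and 17.8% of windows 1 kb from the summits. The composite, whose GATA may overlap that motif, was found in 16, or 36.4% (23.8% to 51.1%), against 32.9% of all peaks and 3.07% of the distant windows. Whether it was above or below the share of all peaks changed with the settings tried. The E-box was found in 23, or 52.3%, against 52.6% and 42.4%. Each of these shares among all peaks lies within the interval of the Ets factor peaks, which is wide with 44 peaks. The interval treats the peaks as independent, although many lie close together, so it is likely too narrow and this is not a test. Among stronger peaks the GATA share at the Ets factor genes was further below that of all peaks, with 68.8% against 79.1% at a fold of at least 10 and 63.0% against 79.8% at a −log10 q of at least 50. These differences were not tested.

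By gene, the composite was in 5 of 12 windows at Ets1, 4 of 9 at Fli1, 4 of 6 at Ets2, 2 of 5 at Etv6, 1 of 3 at Elk3 and none of 6 at Erg, 2 at Etv2 and 1 at Elf1. At Erg the E-box was in 5 of 6 windows and GATA in 3 of 6. These numbers are too small for a comparison between genes. In the full length of the peaks, GATA was found in 39 of 44, or 88.6%, against 89.4% of all peaks, and the composite in 25, or 56.8%, against 47.5%. Erg then had a composite in 2 of its 6 peaks, 705 and 246.5 bp from the summits. Of the 16 Ets factor peaks with a fold of at least 20, 10 had GATA within 50 bp, or 62.5%, against 83.2% of all peaks of that strength. All 16 had it somewhere in the peak, against 95.8%. Neither GATA nor an E-box lay within 50 bp at 3 of the 16, or 18.8%, against 6.76%. Over all 44 peaks this went the other way, with 4 peaks, or 9.09%, against 12.1% of all peaks. Under a fold of 20 the shares were 3.57% and 13.9%, and these differences were not tested.

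Ets factors often bind near SCL, and the Ets motif was searched as GGAA preceded by A or C and followed by A or G. It was found in 22 of the 44 windows, or 50% (35.8% to 64.2%), against 45.2% of all peaks and 25.2% of the distant windows. The bare core GGAA was in 36, or 81.8%, against 76.3% of all peaks. Both a composite and an Ets motif were found in 7 windows, or 15.9%, against 13.1% of all peaks. The RUNX motif, TGCGGT or TGTGGT, was in 7, or 15.9% (7.93% to 29.4%), against 10.7% and 8.62%. It was in 3 windows at Etv6, 2 at Fli1 and 1 each at Ets1 and Erg. For the Ets motif, the bare core and the RUNX motif the share among all peaks again lay within the interval of the 44. No interval was computed for the composite and Ets motif together. These intervals too treat the peaks as independent, and this is not a test.

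**Figure D3:**
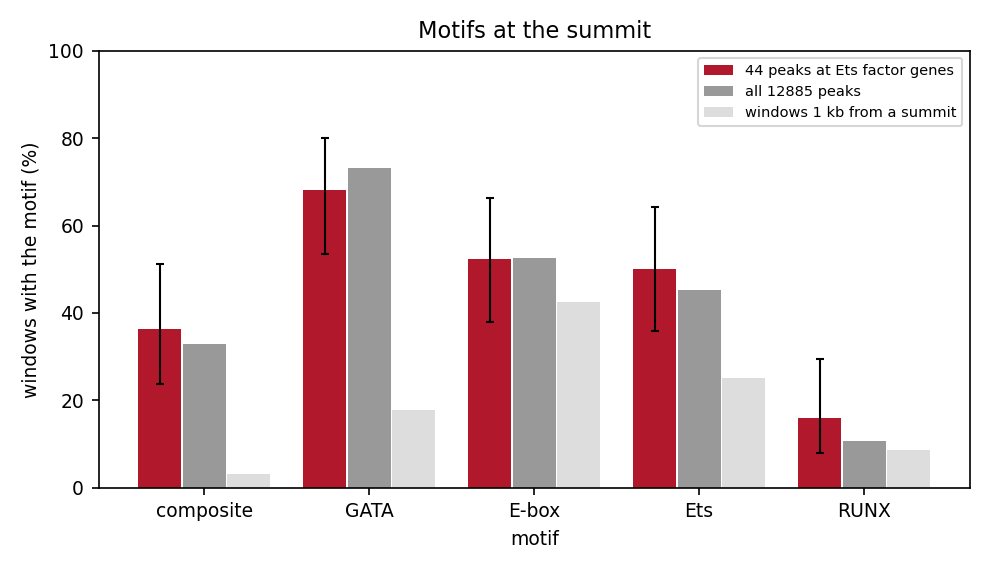
Share of summit windows (%) that hold each motif, for the 44 peaks at Ets factor genes, all 12885 peaks, and windows 1 kb on either side of all summits. Black bars are Wilson 95% confidence intervals of the 44 peaks. The interval covers the share of all peaks for each motif drawn, but it treats the peaks as independent and is not a test.

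The remaining Ets family was set beside these genes as a list of 17 genes, 1 of which, Spi1 (PU.1), is called Sfpi1 in the annotation. The 17 genes had 20 peaks, and 9 of them had none. Their median fold was 8.74, against 15.8 at the Ets factors of blood and endothelium. Spi1, a regulator of myeloid and B cells, had 4 peaks with folds up to 43.5, 3 of them within 1 kb of a TSS. Ehf, an epithelial factor, had 5 peaks with folds up to 35.9, and Etv5, a target of FGF signalling, had 4 with 1 at 70.1. Per 100 kb of sequence nearest to their TSSs, the 17 genes had 0.920 peaks and the 9 genes 1.85. Etv1 alone had 1027 of the 2175 kb of the 17 genes and 1 peak, and without it the rate was 1.66. Without Ets1, the widest of the 9, theirs was 2.32. Both rates were computed after seeing the data.

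**Figure D4:**
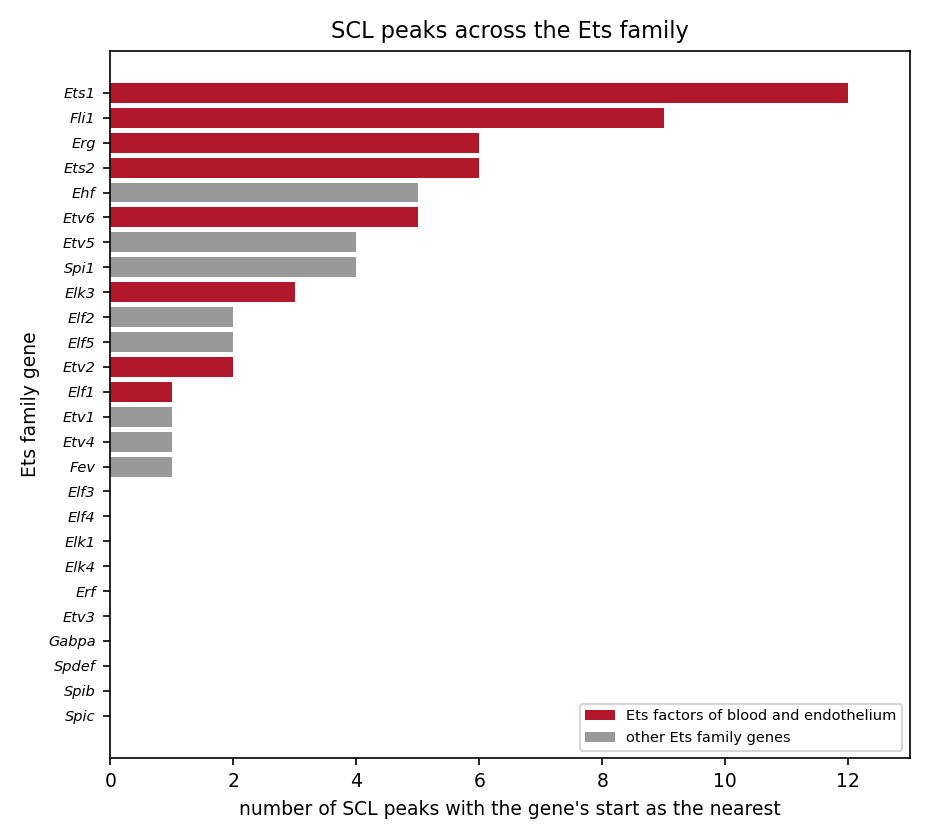
Number of SCL peaks nearest to each of the 26 Ets family genes, with the Ets factors of blood and endothelium in red and the others in grey. Ets1 and Fli1 have most, and 10 genes, Gabpa among them, have none.

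The RUNX genes with Cbfb, and Gata1 and Gata2 with Zfpm1, which encodes the GATA cofactor FOG1, were set beside the Ets factors. The RUNX genes and Cbfb had 18 peaks, 16 of them at Runx1, whose folds reached 298, and 1.23 peaks per 100 kb. Without Runx2, the widest gene of that group, the rate was 1.89. Gata1, Gata2 and Zfpm1 together had 19 peaks, with folds up to 142.7 at Gata1 and 11.9 peaks per 100 kb. Zfpm1 held 10 of these peaks and had the highest rate of them, 21.9 per 100 kb, with a median fold of 15.6, against 42.5 at Gata1 and 36.8 at Gata2. The median fold was 20.3 in the RUNX group and 36.8 in the group of Gata1, Gata2 and Zfpm1. Ets1 and Fli1 were thus among the genes with most peaks, as 0.112% of protein-coding genes had at least the 12 of Ets1 and 0.328% at least the 9 of Fli1, while the peaks of the 9 genes together were not the strongest of these groups in median. These counts are not corrected for span, and Ets1, with 1.20 peaks per 100 kb, had the lowest rate of the Ets factor genes with a peak.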

How the data were processed

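The study cross-linked day 3.5 FLK1+ cells, immunoprecipitated SCL and sequenced paired ends. Per the submitters' processing notes and the methods, the authors aligned reads to mm9 with Bowtie 1.1.2, removed duplicates, called peaks with MACS2 2.0.10 on merged ChIP against merged input, and set the list by irreproducible discovery rate. The deposited list gives a fold enrichment (a ratio), a −log10 p and a −log10 q for each peak as the authors computed them. The deposited score was not used. The list is longer than the set of bound loci the study worked with. The methods name a viewer, MIG, with which peaks were filtered, and its criterion is not given in the sources used here, so all counts and shares refer to the full deposited list. Depth of the SCL libraries is not given in the sources used here. In MACS2 the fold is pileup over background with 1 added to each, and p is a Poisson tail. Solving for both gave each summit's pileup, within 0.001 of the deposited −log10 p in 99.9% of peaks, and its Poisson 95% interval, with the background held fixed. Intervals cover counting error only. The solver and the search for the composite were tested on simulated data.

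Genome and annotation (NCBIM37, GENCODE vM1) are the build of the list. Python 3.11.15, pysam 0.24.0 and scipy 1.17.1 were used. All 9 genes are reported, with the strongest peak of each, peaks with a fold of at least 20 and peaks within 1 kb of a TSS. Other Ets genes are named with at least 5 peaks or a fold of at least 50, and Spi1 was added after its values were seen. Other starts, distances, thresholds, motif windows and rankings were tried, each for the results it bears on. Members and lists were chosen with earlier results of these data known, so shares are set beside those of all peaks with no test.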

Additional observations from a re-analysis of the deposited data

How the results depend on the processing

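No paired analysis was possible because the peaks were called on merged libraries, and leaving out each replicate was not run for the same reason. Of 39 alternative values for the 8 results, 27 stayed within their limit, which was 1.5 times a count or the 95% interval of a share or median, and 12 did not. The number of peaks fell to 26 when only the gene and 10 kb on either side were counted, and to 27 at a −log10 q of at least 50. At least 5 peaks were then found for 3 genes in place of 5 with that gene window, and likewise for 3 with the outermost start of each gene and for 3 when starts of lincRNA and processed-transcript genes could claim a peak. In the gene window Ets1 had 4 peaks, fewer than the 5 each of Fli1, Erg and Etv6, and it also had fewer than Fli1 at a fold of at least 10 (6 and 9) and a −log10 q of at least 50 (5 and 7), so that the place of Ets1 as the gene with most peaks rests on distant and weak peaks. Ets2 had 0 there and also with the noncoding starts, and Elf1 had 3 and, by outermost starts, 0. The median fold rose to 26.6 at a −log10 q of at least 50, against 23.9 for all peaks of that strength. The share with a composite was 23.1% in the gene window, against 32.9% of all peaks, and 56.8% anywhere in the peak, an alternative chosen after seeing the data, in which all peaks had 47.5%. It was also below that of all peaks, and not above as in the report, with noncoding starts (31.4% against 32.9%), at a fold of at least 10 (37.5% against 38.3%), at the −log10 q limit (33.3% against 39.4%) and with a spacing of 8 to 10 bp (34.1% against 35.5%), so its direction depends on these choices. Another summit lay within 5 kb for 38.6% and within 50 kb for 86.4%, against 20.9% and 63.9% of all peaks. The other Ets genes had 6 peaks with folds from 10 upwards, and 4 where −log10 q reached 50. These settings count fewer or more peaks by construction, and no other cause was tested. The strongest peak of all 8 genes was also strongest by −log10 p and by pileup. Depth limits the order of peaks with similar pileups.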
